A study of Arabidopsis thaliana with 30 samples.

Results

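The Affymetrix ATH1 array holds a run of probe sets, numbered 244901 to 245050, that was laid out largely for genes of the mitochondrial and plastid genomes of Arabidopsis thaliana. All 150 probe sets in that run were taken, named or not, out of 22746 that are not controls. The platform annotation named 105 of them, 104 with 1 gene and 1 with several. By those names 13 probe sets were mitochondrial, 77 were plastid, 5 belonged to nuclear loci numbered AT2G07 on chromosome 2, and 10 belonged to nuclear loci numbered AT2G26 on the same chromosome. The label of an organelle block therefore did not hold for the 10 AT2G26 probe sets, which are described apart. Of the 45 unnamed probe sets, 28 lay in number between mitochondrial ones, 4 between mitochondrial and plastid ones, 3 between plastid ones, and 10 beside or among the AT2G26 ones.

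Leaf RNA came from plants aged 21 days, in 5 genotypes, each after high light and without it, with 3 arrays in each of the 10 groups. The high light groups had 1 h at 1000 µE per square metre per second, and the others had no treatment. The genotypes were a WRKY40 knockout (Atwrky40), a WRKY40 overexpressor of which 1 line was used (OE_WRKY40.4), a WRKY63 knockout (Atwrky63), a WRKY63 overexpressor of which 1 line was used (OE_WRKY63.3), and the wild type Col-0. The labels name no promoter for the overexpressors, and they do not state that replicates were different plants, so every p-value here rests on spread that may be technical.

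Mitochondria and plastids keep small genomes of their own, which encode subunits of the respiratory chain, the photosynthetic complexes, ribosomes and a few maturation factors, while nearly all other organelle proteins are encoded in the nucleus. Plant mitochondrial genes are transcribed by phage-type polymerases, and plastid genes by a phage-type polymerase and by a bacterial-type one whose core subunits (the rpo genes) the plastid encodes. Organelle transcripts mostly lack the stable poly(A) tails that the standard labelling protocol primes from, and the nuclear chromosome 2 carries a copy of much of the mitochondrial genome, so a probe set for a mitochondrial gene may also bind nuclear sequence.

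Values are MAS5 signals, linear intensities scaled to a common mean on every array. Changes are differences of log2(signal + 1) with limma's standard error (SE), and a call meant a limma p under 0.05 after Benjamini-Hochberg adjustment over all 22746. Brightness classes were set by the mean log2 signal over the 30 arrays: dim was below the 30th percentile of all probe sets (a signal of 46.7), middle was from there to the 50th percentile (a signal of 167), and bright was above. Of the plastid probe sets 71 were bright, 6 middle and 0 dim. Of the mitochondrial ones 6 were bright, 5 middle and 2 dim, and of the unnamed ones 14, 7 and 24.

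Some measures of whole arrays moved with the treatment. The median signal was 147.7 to 164.2 on the high light arrays and 168.0 to 186.4 on the untreated ones. The log2 ratio of 3' to 5' control probe sets, a measure of RNA integrity, had medians of 0.90 after high light and 1.31 untreated for GAPDH, 1.44 and 1.70 for ubiquitin, and 4.19 and 3.88 for an actin control. The signal of the 25S ribosomal RNA control ran from 9554 to 15186 after high light and from 6727 to 13609 untreated. The leaf markers LHCB4.2 (9337 to 27537) and RCA (23461 to 38076) were high on every array, while the root markers PYK10 (74.1 to 807) and AT4G28100 (314 to 712) were not at 0. The part of these measures in the results below was not tested.

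The plastid probe sets also moved with the replicate number. The array numbered 2 had the lowest plastid median in 10 of 10 groups, for example log2 medians of 12.13, 11.30 and 12.38 for replicates 1 to 3 of Col-0 in high light and 12.67, 12.50 and 12.72 in untreated Col-0. Array 2 was the lowest of its 3 in 73.4% of the group triplets of plastid probe sets, against 33.2% over all probe sets and 36.9% over the mitochondrial ones. The plastid results are therefore also given from the 20 arrays numbered 1 and 3, a setting chosen after seeing the data.

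**Figure D1:**
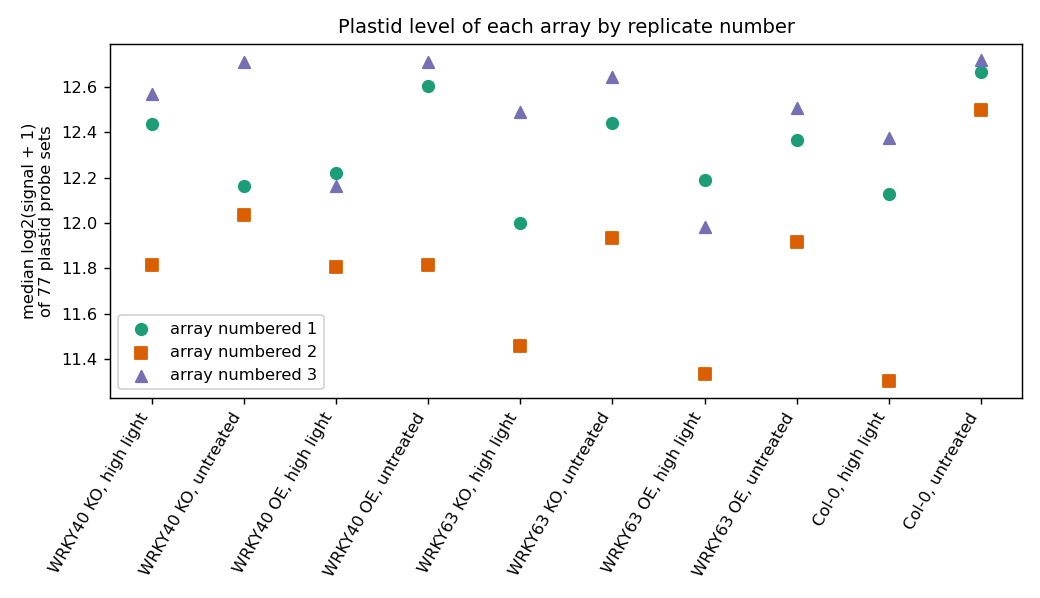
Median log2(signal + 1) of the 77 plastid probe sets (vertical axis) on each of the 30 arrays, by group (horizontal axis, high light left of untreated in each genotype), with a mark for each array number. Number 2 is the lowest of its 3 in 10 of 10 groups.

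The signals of a set of mitochondrial probe sets were higher after high light in every genotype. Averaged over the 5 genotypes, 9 of the 13 mitochondrial probe sets were higher and 0 lower (limma also gave 9 at an unadjusted p under 0.05), with a median log2 change of 0.89. Over all probe sets 16.7% were higher and 37.9% lower, and the median was -0.18. The rises covered subunits of complex I (nad6, nad4L and nad9), the complex IV subunit cox2, the cytochrome c maturation genes ccmFN2, ccmFC and ccmB, and the maturase gene matR. By brightness, 3 of 6 bright, 5 of 5 middle and 1 of 2 dim mitochondrial probe sets were higher. The median signal of the 13 probe sets was 187 to 536 on the high light arrays and 72.8 to 115 on the untreated ones, without overlap. With quantile normalization 9 were again higher and 0 lower (median 1.10), and so they were on the 20 arrays numbered 1 and 3 (0.82). On those 20 arrays 3434 of all 22746 probe sets were higher and 7424 lower. In whole leaves more RNA per cell and more cells that carry it cannot be told apart. Any part of poly(A) tails, from which the labelling primes, was not tested.

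The gene cox2 encodes a core subunit of cytochrome c oxidase, the last complex of the respiratory chain. Its signal had a lowest value, median and highest value of 239, 448 and 1067 on the 15 high light arrays and 57.7, 92.7 and 161 on the 15 untreated arrays. Every high light array lay above every untreated array. The log2 change was 2.36 ± 0.11 (limma adjusted p = 2.45e-16), and over every alternative setting it stayed between 2.19 and 2.53.

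The signal of nad6, a membrane subunit of complex I, was 158, 366 and 1400 (lowest, median, highest) in high light and 1.45, 54.8 and 81.1 in untreated leaves. Again the 2 sets of 15 arrays did not overlap, and the lowest untreated value was a single WRKY40 overexpressor array. The log2 change was 3.32 ± 0.31 (adjusted p = 6.03e-10). This probe set is of a type that can bind several transcripts.

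A further small membrane subunit of complex I, nad4L, ran over 152, 236 and 536 in high light and 29.0, 69.8 and 144 in untreated leaves. All 15 high light arrays were above all untreated ones, and the log2 change was 1.77 ± 0.15 (adjusted p = 1.06e-10). The complex I subunit nad9 changed less, with 120, 183 and 523 in high light and 83.7, 124 and 158 untreated. For nad9, 13 of the 15 high light arrays exceeded every untreated array, and the log2 change was 0.79 ± 0.13 (adjusted p = 5.19e-06).

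The other complex I probe sets gave no call. The nad4 signal was 435, 660 and 1472 in high light and 385, 720 and 1363 in untreated leaves. These ranges overlapped almost wholly (0.01 ± 0.19, adjusted p = 0.984). The dim nad7 probe set ran from 6.996 to 61.1 in high light and from 4.95 to 46.7 untreated, with a change of 0.18 ± 0.29.

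The 4 genes of cytochrome c maturation, whose products attach haem to c-type cytochromes, were split. The signal of ccmFN2 was 50.3, 75.9 and 152 in high light and 4.78, 29.5 and 64.3 in untreated leaves, a log2 change of 1.62 ± 0.26 (adjusted p = 6.48e-06). That of ccmFC was 161, 334 and 773 in high light and 101, 182 and 280 untreated, a change of 0.93 ± 0.15 (adjusted p = 4.2e-06). On 13 and 11 of the 15 high light arrays these signals exceeded every untreated one.

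The third member, ccmB, had 52.4, 102 and 142 in high light and 3.25, 73.1 and 93.9 untreated, a change of 0.89 ± 0.29 (adjusted p = 0.0113). The fourth, ccmFN1, had 750, 1302 and 2510 in high light and 901, 1218 and 2518 untreated, with no shift (-0.01 ± 0.10, adjusted p = 0.925). In plants the bacterial ccmF gene is broken into such separate parts, and here ccmFN2 and ccmFC were called higher while ccmFN1 was not called.

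The dim maturase gene matR, whose product takes part in splicing of mitochondrial introns, was higher by 0.99 ± 0.30 (adjusted p = 0.00588), with 2.91, 7.06 and 40.42 in high light and 2.09, 4.03 and 7.35 untreated. The groups overlapped, and signals this low depend on the pseudocount. The probe set 244944_s_at, annotated to the ribosomal protein genes rps3 and rpl16 together, had 618, 979 and 1808 in high light and 410, 676 and 1686 untreated, a change of 0.35 ± 0.13 (adjusted p = 0.0287). The transport protein gene mttB had 154, 193 and 266 in high light and 165, 203 and 270 untreated and was not called (-0.05 ± 0.09, adjusted p = 0.695).

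**Figure D2:**
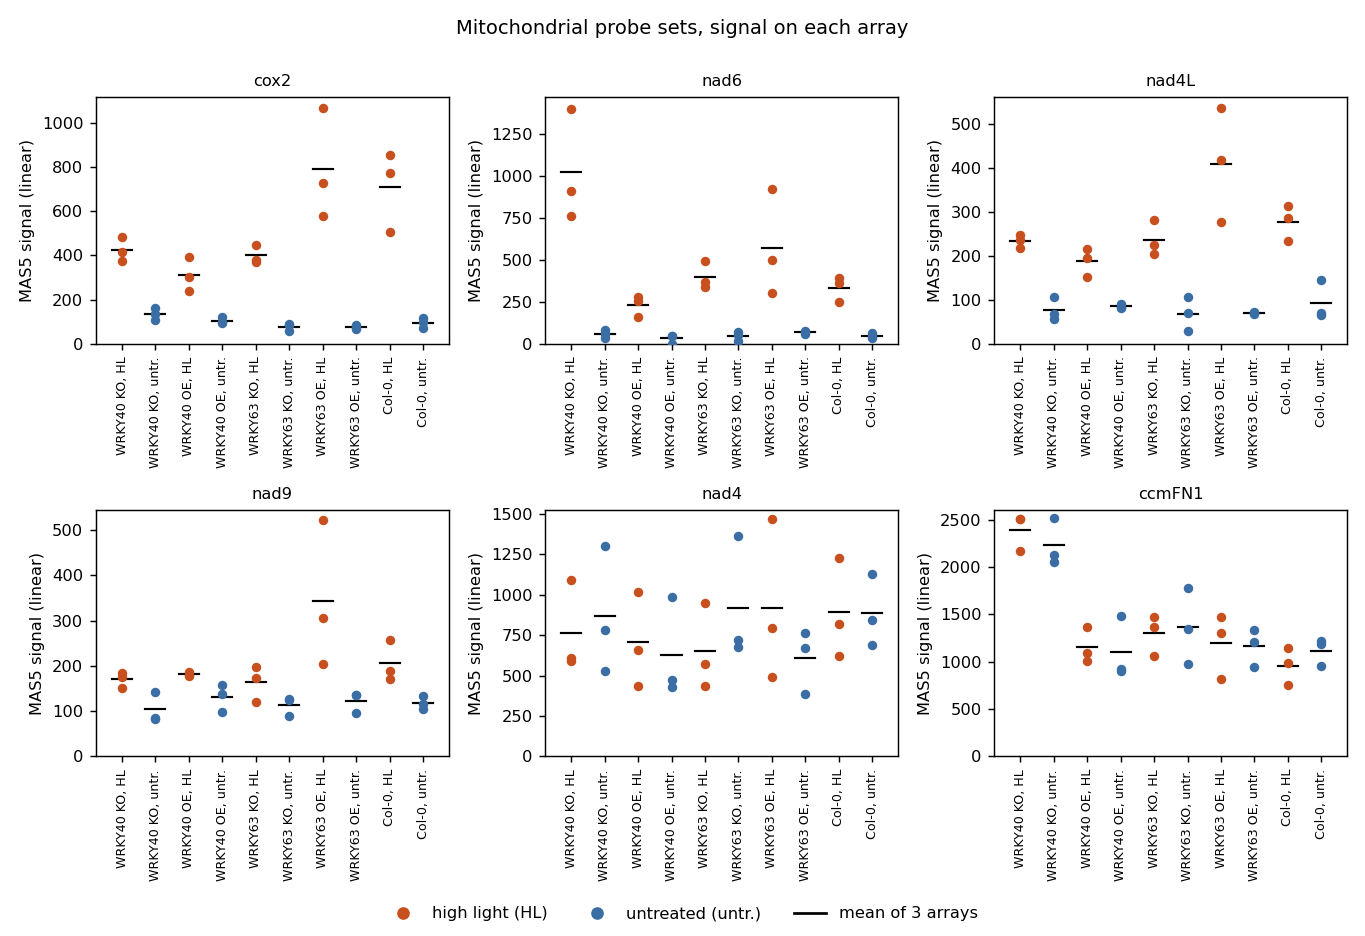
Signals (vertical axis, linear scale) of cox2, nad6, nad4L, nad9, nad4 and ccmFN1 on each array (points), with the mean of 3 arrays as a bar. High light stands left of untreated in each genotype, with Col-0 last. For cox2, nad6 and nad4L every high light array is above every untreated array, whereas the ranges of nad4 and ccmFN1 overlap.

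The signals of cox2 were also compared within each genotype. In high light cox2 had 373, 484 and 414 in the WRKY40 knockout, 239, 301 and 392 in its overexpressor, 382, 371 and 448 in the WRKY63 knockout, 729, 580 and 1067 in its overexpressor, and 505, 853 and 774 in Col-0. Without treatment the same groups had 161, 107 and 137, then 122, 98.2 and 92.7, then 88.3, 57.7 and 87.1, then 67.0, 83.5 and 76.2, and in Col-0 98.2, 115 and 71.8. The 3 high light arrays lay above the 3 untreated arrays in each genotype.

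For cox2 the log2 changes were 1.66, 1.54, 2.37 and 3.33 in the WRKY40 knockout, WRKY40 overexpressor, WRKY63 knockout and WRKY63 overexpressor, and 2.88 in Col-0, each ± 0.24. For nad6 they were 4.11, 3.64, 3.17 and 2.90 in the same lines and 2.77 in Col-0, each ± 0.70. For nad4L they were 1.65, 1.11, 1.95 and 2.49, and 1.65 in Col-0, each ± 0.34. All 15 of these changes were called, so 3 of 13 mitochondrial probe sets (23.1%) were called higher in all 5 genotypes, against 5.75% of all probe sets.

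Counting all 13 mitochondrial probe sets, limma called 4 higher in the WRKY40 knockout (median 0.57), 4 in its overexpressor (0.50), 3 in the WRKY63 knockout (0.60), 7 in its overexpressor (1.14) and 6 in Col-0 (1.19). The share of all probe sets called higher was 9.89%, 9.95%, 9.98%, 11.2% and 10.4% in that order. None was called lower. Without WRKY40 overexpressor high light replicate 3 its count was 2 in place of 4, and on the 20 arrays numbered 1 and 3 the counts were 4, 2, 3, 7 and 3. On those 20 arrays 1864, 1952, 1827, 2033 and 1879 of all 22746 probe sets were called higher, in the same order.

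The probe sets that separated the genotypes' counts were those with smaller changes. The ccmFC change was 1.74 ± 0.33 in the WRKY63 overexpressor (adjusted p = 1.21e-04) and 1.34 ± 0.33 in Col-0 (adjusted p = 0.00224), and ccmFC was not called in the other lines (0.41 to 0.60). The nad9 change was called in the WRKY63 overexpressor (1.39), the WRKY40 knockout (0.75) and Col-0 (0.78). The probe set 244944_s_at was called in 1 genotype, the WRKY63 overexpressor (1.14 ± 0.30), and matR in 1, Col-0 (2.04 ± 0.66).

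Whether a line's response differed from that of Col-0 was tested with an interaction term. It was called for 0 of the 150 probe sets in each of the 4 lines, where limma gave 12, 4, 3 and 11 at an unadjusted p under 0.05 in the WRKY40 knockout, WRKY40 overexpressor, WRKY63 knockout and WRKY63 overexpressor. Over all probe sets 0.659%, 0.0835%, 0.022% and 0.251% were called. For cox2 the response was smaller than in Col-0 by -1.22 ± 0.35 in the WRKY40 knockout and -1.34 ± 0.35 in the WRKY40 overexpressor, with adjusted p of 0.131 and 0.14. Without Col-0 replicate 1 of either light the WRKY40 overexpressor had 1 call. The counts of calls above thus do not show that genotypes differed.

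Some unnamed probe sets numbered between the mitochondrial ones were also higher in high light. Of 28, limma called 9 higher and 1 lower, against 16.7% and 37.9% over all probe sets, with a median of 0.45, and 2 of the 4 numbered between the mitochondrial and plastid ones were higher. Probe set 244906_at had 539, 1100 and 2055 in high light and 140, 174 and 262 untreated, with no overlap and a log2 change of 2.56 ± 0.12 (adjusted p = 6.03e-16). Probe set 244901_at had 218, 367 and 819 in high light and 67.5, 96.3 and 136 untreated, a change of 2.00 ± 0.11 (adjusted p = 2.13e-14).

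Probe set 244931_at had 92.6, 205 and 568 in high light and 9.35, 37.4 and 92.5 untreated, a change of 2.75 ± 0.27 (adjusted p = 1.36e-09). Its lowest high light array was only just above its highest untreated one. For 244906_at, 244901_at and 244931_at, as for cox2, all 15 high light arrays lay above all untreated ones and the rise was called in all 5 genotypes. Probe set 244904_at had 79.2, 144 and 321 in high light and 6.75, 88.8 and 154 untreated, and its change of 1.03 ± 0.27 was called on the 30 arrays but not on the 20 numbered 1 and 3 (adjusted p = 0.0994).

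Among the dim unnamed probe sets, 244942_at had 27.6, 57.2 and 96.0 in high light and 2.50, 9.05 and 57.2 untreated. Although 7 of 15 high light arrays exceeded every untreated one, it was called in all 5 genotypes (2.52 ± 0.31 on average). Probe set 244946_at had 9.40, 42.3 and 111 in high light and 1.79, 13.1 and 30.4 untreated (1.90 ± 0.39). The size of both changes depended on the setting, from 1.48 to 2.72 for 244942_at and from 1.08 to 2.09 for 244946_at. Both averaged calls were kept in 36 of 36 alternatives. The dim 244958_at was higher by 1.03 ± 0.39, and the dim 244916_at was lower, by -0.58 ± 0.21. Neither was called on the 20 arrays (adjusted p = 0.143 for 244958_at and 0.0637 for 244916_at), and 244916_at was not called with quantile normalization (adjusted p = 0.104). The call of 244923_s_at (0.74) was also lost on the 20 arrays (0.40, adjusted p = 0.300).

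The 5 probe sets for AT2G07 loci stood in the same number range. Limma called 3 higher, where 16.7% of all probe sets were, AT2G07751 (0.61 ± 0.12, adjusted p = 5.44e-05), AT2G07674 (0.67) and AT2G07732 (0.86), and did not call AT2G07776 (-0.23) or AT2G07708 (0.12). The call of AT2G07732 was lost on the 20 arrays (adjusted p = 0.199). The signal of AT2G07751 was 472, 666 and 1154 in high light and 315, 408 and 908 untreated, so its groups overlapped. Whether such probe sets read nuclear or mitochondrial RNA cannot be told apart from these signals.

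The calls were also counted by brightness. In high light averaged over genotypes, limma called 58 of the 150 (38.7%), 29 higher and 29 lower, against 54.5% of all probe sets. Among the bright ones 14 were higher and 24 lower of 96, among the middle ones 9 and 4 of 24, and among the dim ones 6 and 1 of 30. Over all probe sets 75.4% of the bright, 58.4% of the middle and 17.2% of the dim were called, counting both directions together. Across the 77 plastid probe sets the log2 change went with the mean log2 signal (Pearson r = 0.353, Spearman rho = 0.422), and across the 13 mitochondrial ones the relation ran the other way (r = -0.237, rho = -0.407). These describe probe sets read on the same 30 arrays, which are not independent.

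**Figure D3:**
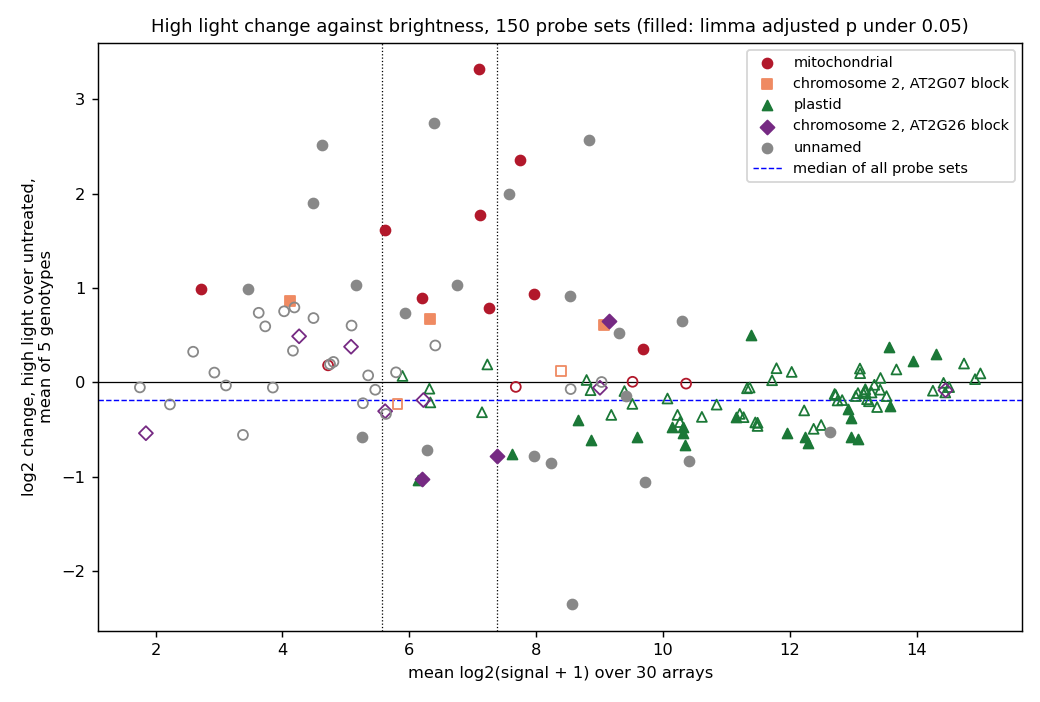
Log2 change in high light averaged over 5 genotypes (vertical axis) against mean log2(signal + 1) over 30 arrays (horizontal axis) for the 150 probe sets, coloured by genome and filled where limma's adjusted p is under 0.05. Dotted lines mark the 30th and 50th percentiles of brightness and the dashed line the median of all probe sets, -0.18. Mitochondrial points lie mostly above the line and plastid points, nearly all bright, lie around it.

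Among the plastid probe sets, averaged over genotypes, limma called 22 of 77 in high light (28.6%), 4 higher and 18 lower. Over all probe sets 16.7% were higher and 37.9% lower. The plastid median was -0.18, which equals the median of all probe sets. A fit with a term for the replicate number called more plastid probe sets lower, among them ccsA, atpA, rpoC1, ndhJ and ndhK, as counted at the end. Among the 71 bright plastid probe sets 29.6% were called, against 75.4% of all bright ones. The 4 that rose were the photosystem II genes psbD, psbC and psbZ and the cytochrome b6f gene petB. The falls included rbcL, the plastid polymerase gene rpoA and 6 of 20 ribosomal protein probe sets.

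The plastid probe sets together held 2.38%, 3.29% and 3.77% (lowest, median, highest) of all signal on the high light arrays and 2.74%, 3.48% and 4.09% on the untreated ones. Over every brightness the median within-group SD on the log2 scale was 0.404 for plastid probe sets, 0.437 for mitochondrial ones and 0.328 for all. Among those with a mean signal above the 75th percentile of all probe sets, it was 0.350 for plastid ones and 0.174 for all. On the 20 arrays numbered 1 and 3 the plastid counts were 6 higher and 15 lower (27.3% called), with a median of -0.09. In that fit 47.7% of all 22746 probe sets were called, 3434 higher and 7424 lower, with a median of -0.15. With quantile normalization, which moved the median of all probe sets to -0.07, the plastid counts were 2 higher and 38 lower, with a median of -0.28. Why the split between rises and falls differed between settings was not tested. The shares of all probe sets called with that normalization are not given here.

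In photosystem II 3 genes were higher and 1 lower of 15, against 16.7% higher and 37.9% lower over all probe sets. The gene psbD, which encodes the D2 protein of the reaction centre, had 2030, 3456 and 4816 in high light and 1237, 2373 and 3767 untreated, overlapping ranges with a log2 change of 0.51 ± 0.16 (adjusted p = 0.00958). The gene psbC, for an inner antenna protein, had 10315, 14397 and 19093 in high light and 5670, 11724 and 14953 untreated (0.38 ± 0.11, adjusted p = 0.00500). The gene psbZ, for a small subunit, had 12460, 16895 and 21190 in high light and 11573, 14758 and 20533 untreated (0.22 ± 0.07, adjusted p = 0.0117).

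These 3 genes are neighbours in the plastid genome, where psbD is known for a light-responsive promoter, and as a run they were picked out after their values were seen. With quantile normalization psbD stayed called (0.41, adjusted p = 0.0393) while psbC (0.19) and psbZ (-0.00) did not. On the 20 arrays the changes were 0.38, 0.35 and 0.30, all called. No single genotype gave a call for psbD: its changes were 0.88, 0.64, 0.56 and 0.26 in the WRKY40 knockout, WRKY40 overexpressor, WRKY63 knockout and WRKY63 overexpressor and 0.19 in Col-0, each ± 0.36.

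The small photosystem II gene psbN was lower by -0.54. The gene psbM had 21340, 30766 and 37795 in high light and 15604, 27075 and 42017 untreated and was not called (0.20 ± 0.11, adjusted p = 0.127). It was called on 28 arrays, leaving out the 2 with the highest 3' to 5' ratios of the second actin control (0.26). The psbA gene, which encodes the D1 protein that strong light damages, had 6312, 8291 and 15869 in high light and 5661, 8545 and 14827 untreated and was not called (0.10 ± 0.13, adjusted p = 0.581).

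The other photosynthetic complexes were counted in the same way, beside the same shares of 16.7% higher and 37.9% lower over all probe sets. Of the 6 cytochrome b6f genes, petB, for cytochrome b6, was higher, with 19124, 22180 and 30842 in high light and 14380, 18512 and 23700 untreated (0.30 ± 0.07, adjusted p = 2.72e-04), and petG was lower by -0.47. The petG call was lost on the 20 arrays (-0.10, adjusted p = 0.683) and with quantile normalization (adjusted p = 0.0527). With quantile normalization petB was not called (0.11, adjusted p = 0.131). Of 7 photosystem I genes, only psaC, an iron-sulphur subunit, was lower (-0.61), and it was not called on the 20 arrays (adjusted p = 0.158) or with quantile normalization (adjusted p = 0.0626).

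The photosystem I reaction centre gene psaB had 18239, 24129 and 30307 in high light and 18444, 25042 and 28922 untreated (-0.05 ± 0.07). Of 6 ATP synthase genes limma called 0, also at an unadjusted p under 0.05, and atpE had 29223, 33371 and 44546 in high light and 28052, 30915 and 37934 untreated (0.09 ± 0.06). The groups overlapped for both genes. With quantile normalization atpA was called lower (-0.44, adjusted p = 0.0450).

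Of the 11 genes of the plastid NADH dehydrogenase-like complex, which passes electrons around photosystem I, 3 were lower and 0 higher, against 37.9% lower and 16.7% higher over all probe sets. The ndhF probe set, of middle brightness, had 16.0, 49.7 and 121 in high light and 53.2, 93.7 and 248 untreated, overlapping ranges with a log2 change of -1.04 ± 0.27 (adjusted p = 0.00164). The genes ndhH (-0.76) and ndhG (-0.40) were also lower, and ndhG lost its call on the 20 arrays (adjusted p = 0.123) and with quantile normalization (-0.26, adjusted p = 0.177). The gene ndhI had 15916, 21949 and 25731 in high light and 21237, 23490 and 24865 untreated and was not called (-0.11 ± 0.06), though it was with quantile normalization (-0.28).

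The gene rbcL, for the large subunit of the CO2-fixing enzyme Rubisco, was lower. Its signal was 2831, 3576 and 5772 in high light and 4250, 6089 and 8410 untreated, a log2 change of -0.58 ± 0.11 (adjusted p = 9.24e-05). The ranges overlapped, and the change was called under every alternative (-0.70 to -0.54). In Col-0 rbcL had 3313, 3560 and 5051 in high light and 7034, 7611 and 6635 untreated (-0.86 ± 0.26, adjusted p = 0.0112), and in the 4 lines its change was -0.55 to -0.47 without a call.

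Genes of the plastid's own transcription and translation were counted next. Of the 4 RNA polymerase genes, rpoA had 4144, 6514 and 9810 in high light and 7697, 9377 and 13287 untreated (-0.58 ± 0.12, adjusted p = 1.44e-04). The largest subunit gene rpoC2 was lower by -0.57, a call not made on the 20 arrays (adjusted p = 0.129) or with quantile normalization (adjusted p = 0.0683). The genes rpoB and rpoC1 were not called, though rpoC1 was with quantile normalization (-0.45). Of 20 ribosomal protein probe sets, 6 were lower and 0 higher (9 at an unadjusted p under 0.05 in limma), against 37.9% lower and 16.7% higher over all probe sets.

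Among the ribosomal genes rpl20 had 691, 1083 and 1624 in high light and 924, 1725 and 3024 untreated (-0.67 ± 0.13). The gene rpl23 had 4137, 7304 and 10292 in high light and 8335, 10693 and 13941 untreated (-0.60 ± 0.11), and rpl36 (-0.65), rpl16 (-0.37), rps18 (-0.36) and rpl22 (-0.28) were lower too. On the 20 arrays rpl16 (-0.13, adjusted p = 0.291) and rps18 (-0.10, adjusted p = 0.581) were not called. The rps7 probe set, of the type that can bind several transcripts, was at -0.01 ± 0.09. Along the plastid genome the 9 neighbours from rpoA to rpl23 were all below 0, with a median of -0.37, a run chosen after the values were seen. Of these 5 were called lower, where 37.9% of all probe sets were.

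Of 7 other plastid genes 3 were lower, where 37.9% of all probe sets were. These were ycf1 (-0.54), accD, for a subunit of acetyl-CoA carboxylase, which makes the first precursor of fatty acids (-0.47), and clpP, for a subunit of the plastid protease. The signal of clpP was 7955, 11319 and 14425 in high light and 10056, 13271 and 20224 untreated (-0.25 ± 0.09, adjusted p = 0.0149), and the call was lost on the 20 arrays (adjusted p = 0.0695). The 3 unnamed probe sets numbered between plastid ones were lower as well, 244979_at by -0.53, 244981_at by -0.84 and 244990_s_at by -0.72. The call of 244990_s_at was lost on the 20 arrays (-0.52, adjusted p = 0.0550) and with quantile normalization (-0.50, adjusted p = 0.0644).

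**Figure D4:**
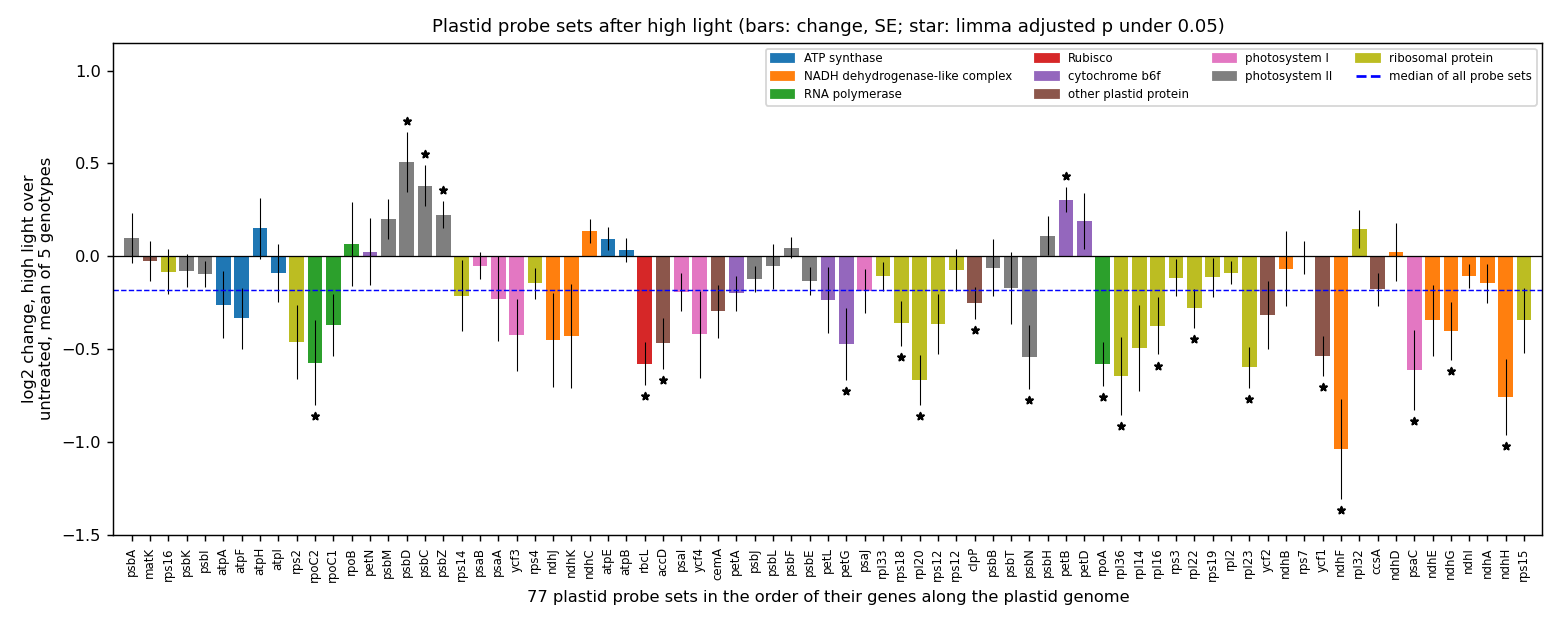
Log2 change in high light averaged over 5 genotypes (vertical axis, bars with SE) of the 77 plastid probe sets in genome order (horizontal axis). Stars mark an adjusted p under 0.05 and the dashed line the median of all probe sets, -0.18. The called rises are psbD, psbC, psbZ and petB, and the 9 bars from rpoA to rpl23 are all below 0.

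The plastid calls were also counted by genotype. Limma called 0 of 77 in the WRKY40 knockout (2 at an unadjusted p under 0.05) and 0 in its overexpressor (4), 5 lower in the WRKY63 knockout, 2 lower and 1 higher in its overexpressor, and 15 lower in Col-0. On the 20 arrays they were 2 higher in the WRKY40 knockout, 2 lower in its overexpressor, 1 lower in the WRKY63 knockout, 1 higher and 5 lower in its overexpressor, and 9 lower in Col-0. In that fit 22.1%, 20.7%, 24.7%, 27.5% and 23.3% of all probe sets were called, in the same order. On the 30 arrays the medians were 0.00, -0.13, -0.24, -0.15 and -0.43, against -0.22, -0.13, -0.21, -0.25 and -0.15 over all probe sets. Of all probe sets 29.8%, 27.7%, 32.1%, 36.1% and 30.3% were called in those 5 genotypes, and 19.9%, 17.8%, 22.1%, 24.9% and 19.9% were called lower. No plastid probe set was called lower in all 5 genotypes, against 9.81% of all.

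In Col-0 the 15 were led by rpoC2, with 553, 189 and 725 in high light and 987, 1352 and 1803 untreated (-1.66 ± 0.51, adjusted p = 0.0140). High light replicate 2 was the lowest. The Col-0 count was 3 without high light replicate 2 and 9 without untreated replicate 3. In the WRKY63 knockout ndhF led, with 33.5, 16.0 and 86.5 in high light and 93.7, 126 and 248 untreated (-1.96 ± 0.60, adjusted p = 0.0129), and the group's 5 calls became 0 without high light replicate 2 or untreated replicate 3, and 1 without untreated replicate 2. On the 20 arrays ndhF was not called there (adjusted p = 0.145).

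The 3 plastid calls of the WRKY63 overexpressor were psbZ, higher by 0.48, and rpl23 and psbE, lower by -0.85 and -0.45. Its lower calls numbered 8 without high light replicate 1, 4 without untreated replicate 2, and 1 without high light replicate 3 or untreated replicate 1 or 3. Leaving out 1 array at a time gave 0 to 1 higher calls in the WRKY40 knockout, and 0 to 2 lower calls in the WRKY40 overexpressor, with 2 without its untreated replicate 2.

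Nuclear genes that serve organelle transcription and RNA decay were set beside these members from a list of 27, of which 2 had a named probe set. RPOTmp, a phage-type RNA polymerase of both organelles, had 102, 183 and 272 in high light and 24.6, 96.1 and 152 untreated. Its log2 change averaged over genotypes was 1.03 ± 0.19 (limma adjusted p = 3.55e-05). Within genotypes it was called in the WRKY40 knockout (1.48) and the WRKY40 overexpressor (1.56). It was not called in the WRKY63 knockout (0.76), the WRKY63 overexpressor (0.54) or Col-0 (0.78), each ± 0.42. The mitochondrial polynucleotide phosphorylase gene mtPNPase, which acts in RNA decay, was not called (0.05 ± 0.11, adjusted p = 0.725).

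Each line was also compared with Col-0 in each light, and the 4 lines share the Col-0 arrays. The WRKY40 knockout differed most often among the members, with 4 of 150 called untreated (9.77% of all probe sets) and 8 in high light (10.2%). The plastid gene ccsA, whose product takes part in cytochrome c synthesis, was lower in the knockout in both lights, and the mitochondrial gene ccmFN1, of cytochrome c maturation, was higher in both. Limma made both calls under each of 15 alternatives in each light.

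In high light ccsA had signals of 4132, 3605 and 4593 in the WRKY40 knockout and 12267, 7908 and 13266 in Col-0. Without treatment it had 4590, 4387 and 6691 in the knockout and 13797, 13388 and 13640 in Col-0. All knockout arrays were below all Col-0 arrays. The differences were -1.41 ± 0.20 in both lights, with adjusted p of 1.55e-05 in high light and 1.63e-05 untreated, while its change in high light averaged over genotypes was not called (-0.18 ± 0.09, adjusted p = 0.0974), though it was with quantile normalization (-0.34).

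In high light ccmFN1 had 2506, 2171 and 2510 in the WRKY40 knockout and 1145, 750 and 985 in Col-0. Without treatment it had 2057, 2131 and 2518 in the knockout and 1218, 955 and 1183 in Col-0. Every knockout array was above every Col-0 array, and the differences were 1.34 ± 0.22 in high light (adjusted p = 1.42e-04) and 1.00 ± 0.22 untreated (adjusted p = 0.00350). In the other 3 lines neither gene was called against Col-0 in either light, with ccsA differences of -0.25 to 0.07 and ccmFN1 differences of -0.05 to 0.45.

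**Figure D5:**
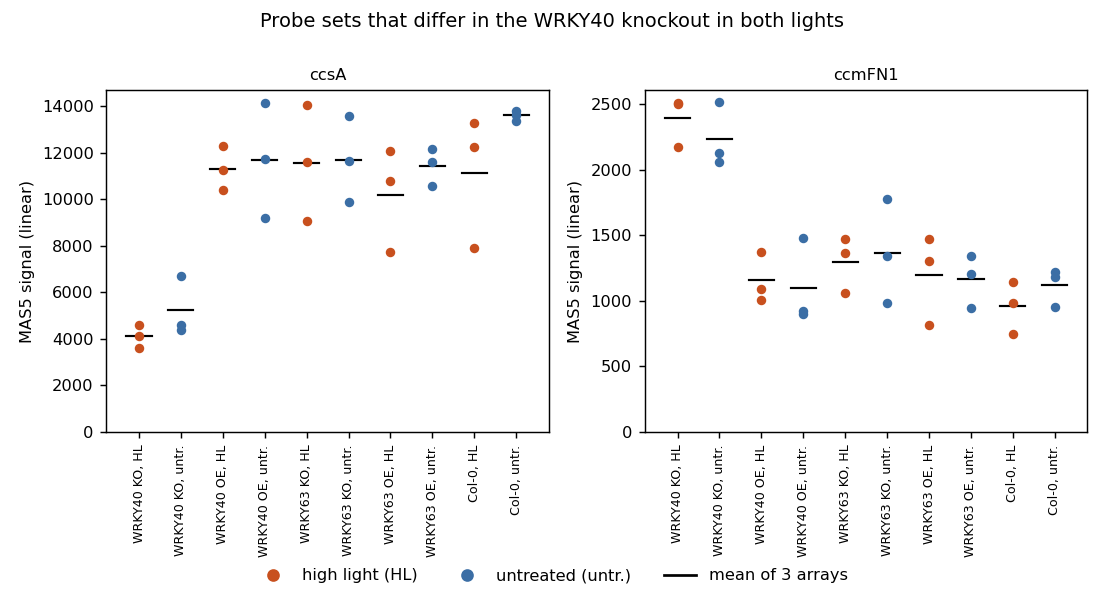
Signals (vertical axis) of ccsA and ccmFN1 on each array (points) in the 10 groups, high light left of untreated in each genotype and Col-0 last, with the mean of 3 arrays as a bar. The 6 WRKY40 knockout arrays lie below every other array for ccsA (at most 6691, against at least 7721) and above every other array for ccmFN1 (at least 2057, against at most 1781).

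The remaining calls in the WRKY40 knockout rested more on single arrays. The polymerase gene rpoC2 had 1606, 840 and 1609 in the knockout in high light and 553, 189 and 725 in Col-0, without overlap (1.61 ± 0.51, adjusted p = 0.0430). It lost the call without Col-0 high light replicate 1 or 2 (adjusted p = 0.0517 and 0.290) and without knockout high light replicate 1 or 3 (0.143 and 0.148). The ribosomal protein genes rps4 (0.74 ± 0.18) and rps3 (0.71 ± 0.22) were also higher in high light, and 244901_at was lower (-0.79 ± 0.25, adjusted p = 0.0474).

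Leaving out arrays changed these counts. The high light count of 8 fell to 4 without Col-0 high light replicate 2 and to 5 without knockout high light replicate 1 or replicate 3. The untreated count of 4 fell to 2 without Col-0 untreated replicate 2 or 3 or knockout untreated replicate 1. The 20 arrays gave 5 in high light and 2 untreated, where 6.27% and 6.56% of all probe sets were called.

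The other lines gave few calls. In the WRKY40 overexpressor limma called 1 of 150 in high light (1.48% of all probe sets, and 10 members at an unadjusted p under 0.05) and 0 untreated (1.57%, with 4 at an unadjusted p). The 1 call was cox2, with 239, 301 and 392 in the overexpressor and 505, 853 and 774 in Col-0 in high light (-1.19 ± 0.24, adjusted p = 0.00902). The groups did not overlap, but the call was lost without Col-0 high light replicate 2 or 3 (adjusted p = 0.0698 and 0.0532) and on the 20 arrays (adjusted p = 0.160).

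In the WRKY63 knockout 0 members were called in high light (0.00879% of all, with 3 at an unadjusted p under 0.05 in limma) and 0 untreated (0.308%, with 14). In the WRKY63 overexpressor 0 were called in high light (6.11% of all, with 12 at an unadjusted p) and 1 untreated (2.9%, with 22). The 1 was the unnamed 244990_s_at, with 79.6, 32.0 and 41.5 in the overexpressor and 140, 341 and 105 in Col-0 (-1.83 ± 0.49, adjusted p = 0.0380), called in 6 of 14 alternatives. Leaving out arrays gave the WRKY63 knockout 1 untreated call without replicate 1 of Col-0 or of the knockout. It gave the WRKY63 overexpressor 1 or 2 calls in high light without any of its own arrays or Col-0 replicate 1 or 3. Its untreated count became 0 without Col-0 replicate 1 or its own replicate 2 or 3, and 2 without Col-0 replicate 3.

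The 10 AT2G26 probe sets are named for nuclear loci. Of the 10 unnamed ones near them, 6 lay between AT2G26 numbers and 4 (245027_at, 245028_at, 245045_at and 245046_at) between AT2G26 and plastid numbers, and no genome is named for them here. Of the 10 named, limma called 1 higher and 2 lower, against 16.7% and 37.9% over all probe sets. YAB5, a YABBY-family transcription factor gene of leaves, had 87.2, 129 and 178 in high light and 154, 214 and 351 untreated (-0.78 ± 0.10, adjusted p = 3.19e-07). AT2G26360 had 27.6, 51.0 and 97.4 in high light and 74.1, 105 and 191 untreated (-1.03 ± 0.16, adjusted p = 5.18e-06), and AR781 was higher (0.65), a call not made on the 20 arrays (0.37, adjusted p = 0.326).

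Probe set 245046_at had 435, 583 and 715 in high light and 1027, 1135 and 1675 untreated, without overlap, and was called lower in all 5 genotypes (-1.06 ± 0.05 on average, adjusted p = 2.90e-15). Probe set 245027_at was also called lower in all 5, with 174, 227 and 285 in high light and 272, 403 and 606 untreated (-0.86 ± 0.09). Probe set 245045_at was called higher in all 5, with 1319, 1619 and 1775 in high light and 812, 983 and 1212 untreated (0.65).

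Probe set 245038_at was lower in high light in 4 of 5 genotypes. In high light it had 449, 1101 and 690 in the WRKY40 knockout, 304, 184 and 185 in its overexpressor, 56.2, 43.8 and 68.0 in the WRKY63 knockout, 328, 74.6 and 622 in its overexpressor, and 150, 14.7 and 102 in Col-0. Without treatment the same groups had 2059, 2133 and 2934, then 312, 269 and 173, then 276, 305 and 793, then 1788, 2118 and 1838, and in Col-0 743, 1294 and 1164. The high light arrays lay below the untreated ones in 4 genotypes and overlapped them in the WRKY40 overexpressor.

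The changes of 245038_at in high light were -1.75, -0.16, -2.86 and -2.94 in the WRKY40 knockout, WRKY40 overexpressor, WRKY63 knockout and WRKY63 overexpressor and -4.05 in Col-0, each ± 0.62, all called except that of the WRKY40 overexpressor. Against Col-0 in high light it was higher in the WRKY40 knockout by 3.48 ± 0.62 (adjusted p = 3.10e-04), and by 2.16 on the 20 arrays. The unnamed 245035_at was lower in high light averaged over genotypes (-0.78 ± 0.22, limma adjusted p = 0.00323), a call kept in 38 of 38 alternatives. It was among the 3 largest called falls in Col-0 (-1.59 ± 0.49, kept in 8 of 15) and the WRKY63 overexpressor (-2.29 ± 0.49, kept in 15 of 15), but not in the other lines. It was also lower in the untreated WRKY40 knockout, with 96.5, 122 and 188 against 161, 811 and 802 in untreated Col-0, overlapping groups (-1.85 ± 0.49, adjusted p = 0.0133), and kept that call in 8 of 15 alternatives. AR781 was also lower there, with 250, 202 and 180 in the knockout and 484, 621 and 881 in Col-0 (-1.62 ± 0.50, adjusted p = 0.0397), and kept its call in 7 of 15 alternatives.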

How the data were processed

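RNA from Arabidopsis leaves was read on 30 ATH1 arrays in 10 groups of 3, grouped by sample title. The deposited values are signal intensities on a linear scale that the authors made with the MAS5 algorithm, as the submitters' processing notes name it, with version and parameters not given in the sources used here. The 64 control probe sets were left out of tests. In R 4.3.3 with limma 3.58.1, a mean per group was fitted to log2(signal + 1) on all 30 arrays, with empirical Bayes moderation and a trend on signal, and no filter on low values. Adding 1 shrinks the changes of dim probe sets, and a larger pseudocount shrinks them more, so their size depends on this choice. The 18 comparisons were high light against untreated averaged over and within genotypes, lines against Col-0 within a light, and the interactions. With 3 arrays per group, the number of arrays limits precision. The correlation of log2 signals between arrays of a group was 0.922 to 0.966, and no pair was identical.

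Names came from the platform annotation, with old symbols updated through the gene table given. Named in full were, in high light averaged over genotypes, the 8 largest called rises and falls at or above the 30th percentile of brightness and the 3 below it, 3 each way in other comparisons, and the member of each functional group with the highest mean log2 signal. Further members were named from counts of called ones. The members and lists were chosen with earlier results of these data known. Alternatives were a pseudocount of 16, quantile normalization, filters at the 30th and 50th percentiles, only the arrays compared, and a replicate block. Further ones were 28 arrays without the highest ratios of the second actin control, each array left out, and the 20 arrays numbered 1 and 3 with and without the block. The steps were tested on simulated data.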

Additional observations from a re-analysis of the deposited data

How the results depend on the processing

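The calls of cox2, nad6, nad4L, rbcL, rpoA and ndhF in high light averaged over genotypes held their direction and side of the threshold under every alternative run, and so did ccsA and ccmFN1 in the WRKY40 knockout. Several counts of called members moved. On the 20 arrays numbered 1 and 3, chosen after seeing the data, high light gave 11 in the WRKY63 knockout and 11 in the WRKY40 knockout. These were 7.33% of members in each, against 24.7% and 22.1% of all probe sets on the same arrays. Against Col-0 untreated the 20 arrays gave 2 for the WRKY40 knockout and 0 for the WRKY63 overexpressor, where 6.56% and 1.9% of all probe sets were called. In high light they gave 5 for the WRKY40 knockout, 0 for the WRKY40 overexpressor and 2 for the WRKY63 overexpressor. There 6.27%, 0.422% and 4.49% of all were called. On 28 arrays the WRKY63 overexpressor had 1 in high light against Col-0. The filters at the 30th and 50th percentiles each gave the WRKY63 overexpressor 1 in high light and 2 untreated against Col-0. With the filter at the 50th percentile, which tests fewer probe sets, high light gave 13 in the WRKY63 knockout, 7 in the WRKY40 overexpressor and 10 in the WRKY40 knockout. With only the arrays compared, the WRKY40 overexpressor had 1 untreated and 0 in high light against Col-0, and the WRKY63 overexpressor 2 untreated. The WRKY63 overexpressor also had 2 untreated with a pseudocount of 16 or quantile normalization, and 1 in high light with a pseudocount of 16. The shares of all probe sets called under the other alternatives are not given here, so these counts do not show that members moved more than others. The causes were not tested.

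Small changes in high light averaged over genotypes turned in sign: on the 20 arrays, with and without the block, rps7 was 0.0011, mttB 0.0486 and ccmFN1 0.00885, nad4 was -0.0391 on 28 arrays, and mttB was 0.16 with quantile normalization. None of these was called.

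The replicate numbers did not pair the samples by the rule used, since 0 of 15 pairs of arrays (high light with untreated, same genotype and number) had a genome-wide correlation of deviations above 0.1. Over plastid members the mean correlation between arrays of different groups was 0.412 for the same number and -0.205 for different ones. Over all probe sets it was 0.0157 and -0.00781, and 22 of 30 arrays correlated best with arrays of their own number. With the replicate block, high light gave 55 members in Col-0 and 32 in the WRKY63 knockout. Averaged over genotypes the block fit called 38 of 77 plastid probe sets, 4 higher and 34 lower, the lower ones including ccsA, atpA, rpoC1, ndhJ and ndhK. Without the block 16.7% of all probe sets were higher and 37.9% lower, and the shares with the block are not given here. Against Col-0 the block fit gave 10 for the WRKY40 knockout, 1 for the WRKY63 knockout and 4 for the WRKY63 overexpressor untreated, and 2 for the WRKY63 overexpressor in high light. The interaction of the WRKY40 knockout gave 1. The 20 arrays with the block gave 4 for the WRKY63 overexpressor and 0 for the WRKY40 overexpressor against Col-0 in high light, and 1 for that interaction.

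Leaving out each replicate in turn, members called in high light ranged from 18 to 32 in Col-0 (33 on all arrays, 18 without its high light replicate 2), 11 to 18 in the WRKY40 knockout (17 on all, 11 without its high light replicate 1), 9 to 15 in the WRKY40 overexpressor (14 on all, 9 without its high light replicate 3) and 11 to 22 in the WRKY63 knockout (21 on all, 11 without its high light replicate 2). Against Col-0 untreated they ranged from 2 to 4 for the WRKY40 knockout, 0 to 1 for the WRKY63 knockout and 0 to 2 for the WRKY63 overexpressor. In high light they ranged from 4 to 9, 0 to 1 and 0 to 2 for the WRKY40 knockout, WRKY40 overexpressor and WRKY63 overexpressor, and for the interaction of the WRKY40 overexpressor from 0 to 1. The averaged changes ranged from -0.0575 to 0.0368 for ccmFN1, -0.0769 to 0.0819 for nad4 and -0.0471 to 0.0281 for rps7. No detection calls came with the signals, so dim probe sets could not be set against background.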
